A study of Mus musculus with 6 samples.

Results

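The genes described here are 34 genes of the interferon response and of the MHC class I pathway. They were picked by symbol, not by any measured value, and comprise 5 transcription factors, 16 antiviral effectors, 4 interferon-inducible GTPases, 6 genes of antigen processing and loading, and 3 class I chains. Each was read at 1 probe set, the one with the highest mean over the arrays among those annotated with that gene alone. This rule found 33 of the 34, out of 12393 genes that could be read in this way. The probe set of *Isg15*, the ubiquitin-like modifier, carries more than 1 symbol, and *Isg15* is not analysed here.

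The study asked how the lack of IGF1, a growth factor of prenatal development, alters gene expression in the fetal lung. Lungs of *Igf1*-/- (homozygous mutant) and *Igf1*+/+ (wild type) mice were taken at embryonic day 18.5, with 3 arrays per genotype. Both genotypes came from matings of heterozygous parents on a C57BL/6J background and share strain and age. The mutant lacks *Igf1* in the whole body and not in the lung alone. Per the study's methods, the pups were delivered by Caesarean section and kept breathing for a short time before dissection. The labels speak of pooled lungs, whereas the study's methods name separate RNAs for the 3 arrays of a genotype. Where arrays share animals, the p-values cover only the spread between these RNA samples.

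Interferons are cytokines that cells release on sensing viral nucleic acid or when lymphocytes are activated. Type I interferons act through the receptor chains IFNAR1 and IFNAR2, the kinases JAK1 and TYK2 and a complex that includes STAT2 and IRF9 and binds the interferon-stimulated response element (ISRE) of antiviral genes. Interferon-γ acts on gamma-activated sites (GAS). Both also raise the class I pathway, in which the immunoproteasome cuts proteins into peptides, TAP carries these into the endoplasmic reticulum, tapasin loads them onto a heavy chain bound to β2-microglobulin, and the complex shows them to CD8+ T cells.

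The 6 arrays were alike as a whole, with correlations between arrays from 0.992 to 0.996 and array medians between 6.85 and 6.89 on the deposited log2 scale. *Igf1* itself was read at 9.08 ± 0.27 (SD, n = 3) in *Igf1*-/- and 9.59 ± 0.29 (SD, n = 3) in *Igf1*+/+ lungs at its brightest probe set, a difference of -0.51 on the log2 scale (SE 0.17, adjusted p = 0.267), with overlapping groups. The groups did not overlap at the dimmest of its 3 probe sets (-0.58, SE 0.14, adjusted p = 0.152), so that the arrays check the labels only in part. The lung markers *Sftpc* (surfactant protein C), *Cldn5* (endothelium) and *Col3a1* (mesenchyme) were read at 14.37 or above, 10.73 or above and 12.76 or above in every array, with differences between genotypes of 0.05, -0.18 and 0.04. The next brightest markers of these lists had differences of 0.30 (*Sftpb*), 0.25 (*Sftpa1*), -0.15 (*Esam*), 0.04 (*Pecam1*), -0.09 (*Tcf21*) and 0.01 (*Col1a2*), and none passed. At an unadjusted p under 0.05 in limma, 3 of 6 epithelial markers were higher in *Igf1*-/- lungs. At the same threshold 2 of 7 endothelial and 1 of 6 mesenchymal markers were lower, where 12.7% of all genes had such a p in either direction. *Igf1*+/+ replicate 3 received the lowest weight (0.513) when limma weighted the arrays by their fit, and without it 710 probe sets passed instead of 126. The Y-linked gene *Eif2s3y* was read at 7.95 in that array and at 7.50 in *Igf1*-/- replicate 1, and between 3.46 and 3.53 in the other 4. The same pair of arrays differed in *Xist*, the X-linked RNA of female cells, which was read at 3.50 in *Igf1*+/+ replicate 3, at 7.09 in *Igf1*-/- replicate 1 and between 12.10 and 12.22 in the other 4.

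None of the 33 genes passed the test between genotypes. At an adjusted p under 0.10 (limma, Benjamini-Hochberg over 22626 mouse probe sets), 0 of 33 rose and 0 fell, where 0.597% of all genes passed, 0.145% higher and 0.452% lower in *Igf1*-/- lungs. At an unadjusted p under 0.05 there were 3 (*Oas1a* and *Oas2* higher, *Ifit2* lower) against 12.7% of all genes. The groups did not overlap in 6 genes, 3 higher and 3 lower in *Igf1*-/- lungs, whereas 18.8% of all genes had groups that did not overlap (11.9% higher and 6.84% lower). The median log2 fold change, *Igf1*-/- minus *Igf1*+/+, was 0.0031 over the 33 genes and 0.033 over all genes. For 25 of the 33 the 95% confidence interval of the difference lay within a 1.5-fold change either way, which held for 94.4% of all genes. None of the 58 probe sets that name 1 of these genes alone passed either, with 0.557% of all mouse probe sets passing.

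**Figure D1:**
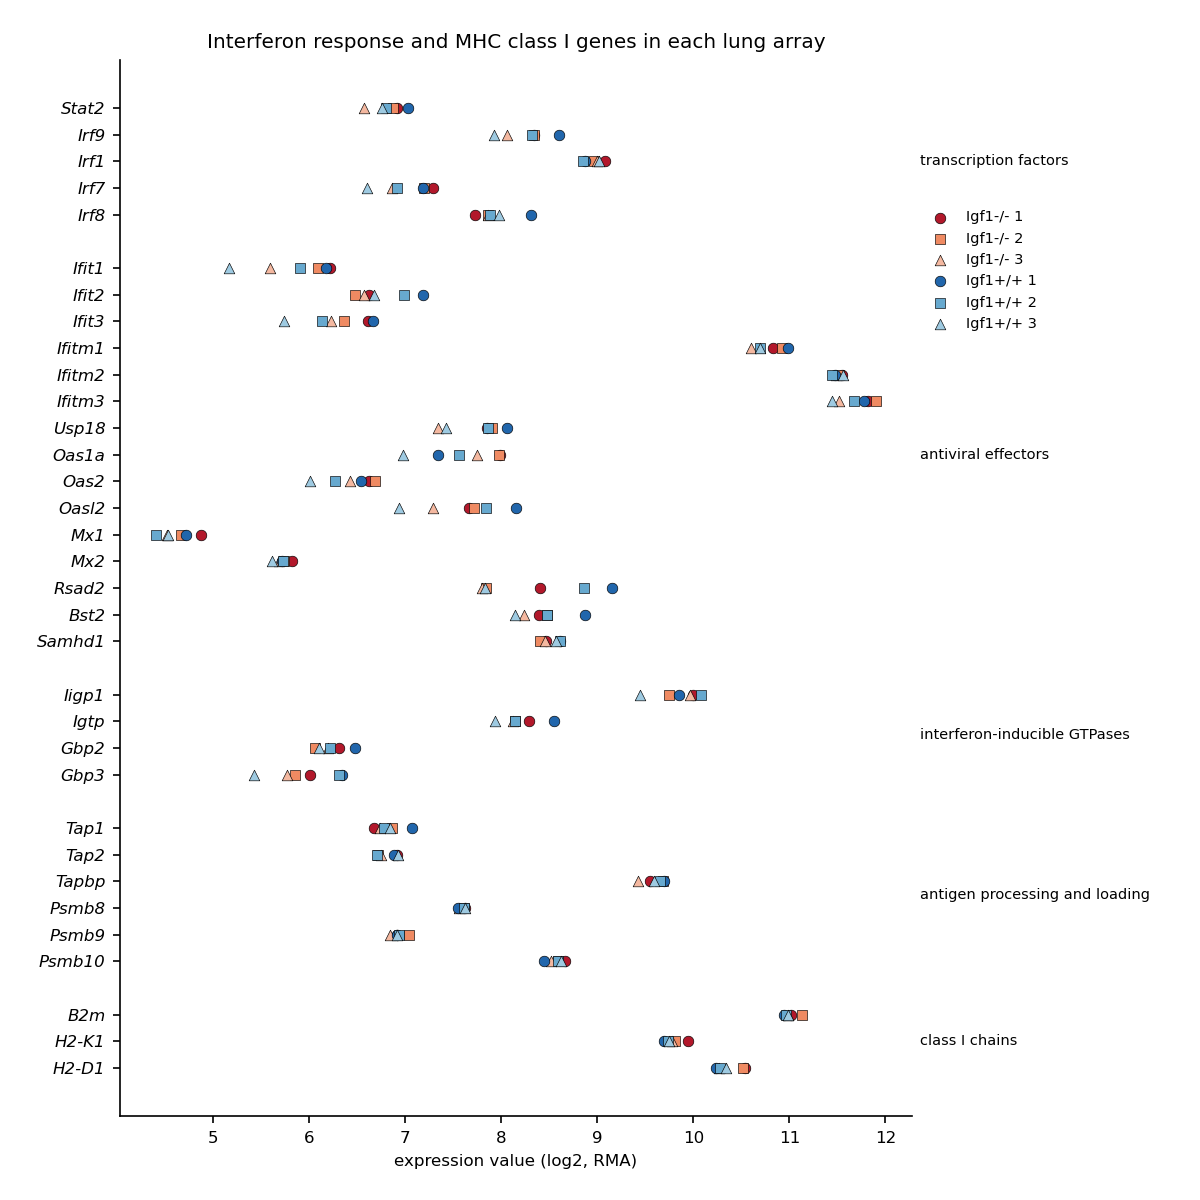
Log2 expression values (horizontal axis) of the 33 genes in each of the 6 lung arrays, one symbol per array, grouped by role. Within most rows the red (Igf1-/-) and blue (Igf1+/+) symbols overlap, and the light triangle of Igf1+/+ replicate 3 is often the leftmost.

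**Figure D2:**
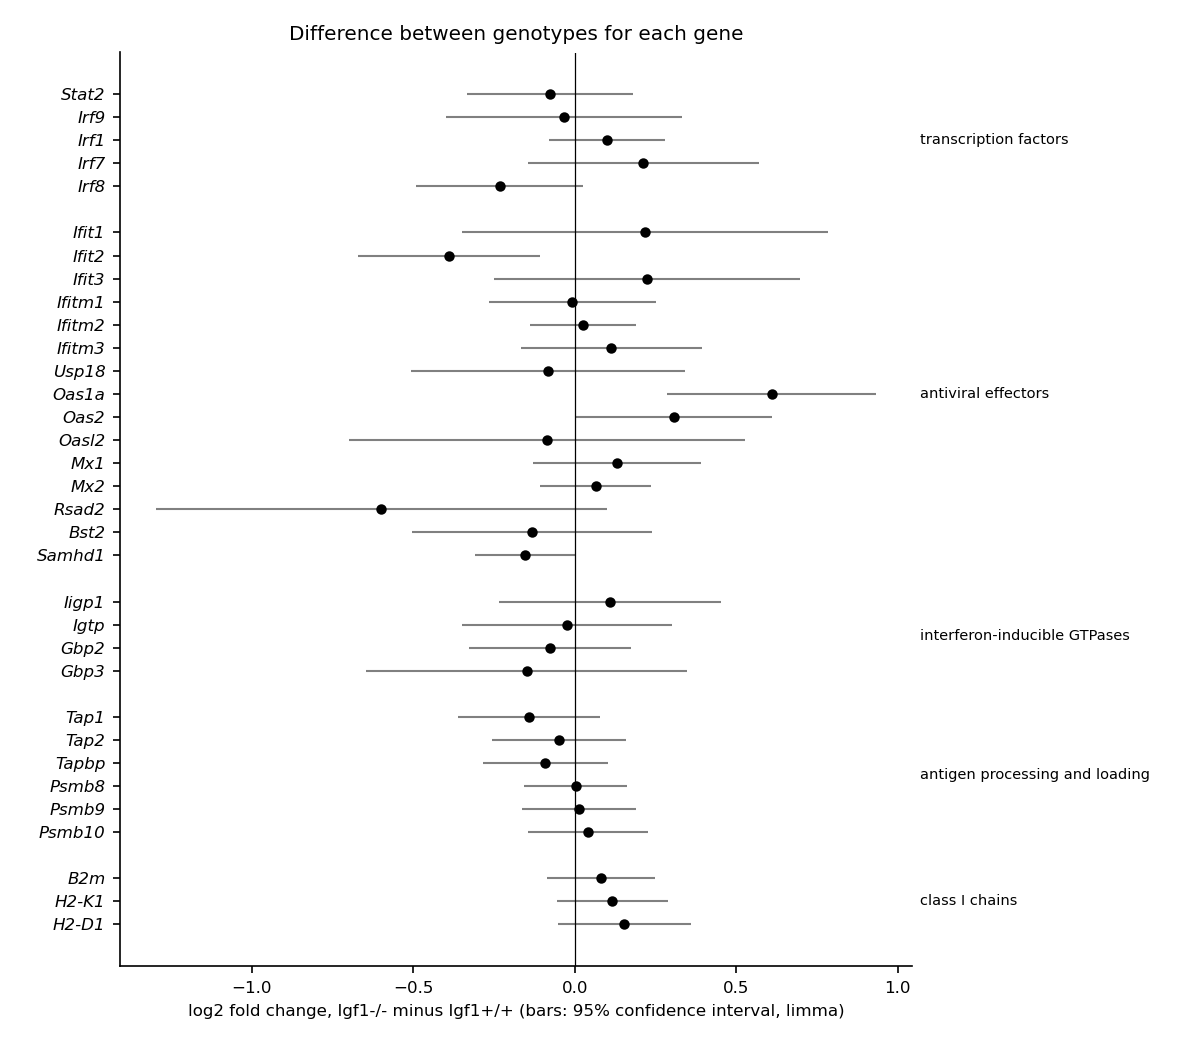
Difference between genotypes for each gene, as log2 fold change (Igf1-/- minus Igf1+/+, points) with the 95% confidence interval from limma (bars). The intervals of Oas1a, Oas2 and Ifit2 exclude 0 before adjustment for multiple testing, and those of the class I chains and the immunoproteasome subunits Psmb8, Psmb9 and Psmb10 lie within a 1.5-fold change.

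Among the transcription factors, *Stat2* and *Irf9*, parts of the complex that type I interferons activate, had differences between genotypes that were smaller than their spread. *Irf9* was read at 8.34, 8.34 and 8.06 in *Igf1*-/- lungs and at 8.60, 8.32 and 7.92 in *Igf1*+/+ lungs. The *Igf1*+/+ values enclosed the *Igf1*-/- values, and the log2 fold change was -0.03 (SE 0.16, adjusted p = 0.951). *Stat2* had -0.08 (SE 0.11, adjusted p = 0.811) at its brightest probe set and 0.19 at the other one. *Irf7*, the factor that amplifies interferon-α production, was read at 7.29, 7.20 and 6.86 against 7.19, 6.92 and 6.60, with overlapping groups and a difference of 0.21 (SE 0.16, adjusted p = 0.607). *Irf1*, an early target of interferon-γ, varied between 8.85 and 9.08 over the 6 arrays, with a difference of 0.10. *Irf8*, a factor of myeloid and dendritic cell development, was lower in all 3 *Igf1*-/- arrays (7.73, 7.87 and 7.87) than in the *Igf1*+/+ arrays (8.31, 7.88 and 7.97). The *Irf8* groups did not overlap, and the difference did not pass the test, with -0.23 (SE 0.11, adjusted p = 0.442) at this probe set and -0.27 (adjusted p = 0.442) at the other one.

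Many of these genes carry the letters of an ISRE before their transcription start. A few such stretches are printed, picked from genes that also varied widely between arrays, as given further on. Whether the motif bears on that variation was not tested, and *Ifitm2*, which also carries a core, varied little. Promoter windows of 300 bases, from 250 before to 50 after the transcription start, were taken from RefSeq (GRCm38.p6) for 27 of the 33 genes. The ISRE core, spelled GAAA, any 2 bases and GAAA again, was looked for on both strands, and so were GAS, spelled TTCNNNGAA, and the κB motif GGGNNTTCC. The ISRE core stood in 11 of 19 windowed genes outside antigen presentation (57.9%) and in 1 of 8 inside it, and in 3.99% of 27025 genes overall. GAS was found in 9 of the 27 (33.3%) and in 9.55% of all genes. Matches of different motifs overlapped in 3 cases, in *Bst2* and *Ifitm3*. A match is a run of letters and no proof of binding. Below, the sequences run 5′ to 3′ in the direction of the gene, upstream of its start, with the ISRE cores in capitals (TTTC...TTTC where the core lies on the other strand).
Ifit1 (chr19:34640765-34640833, + strand, 124 to 56 bases before the start): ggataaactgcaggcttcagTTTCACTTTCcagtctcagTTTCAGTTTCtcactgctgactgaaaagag
Ifit3 (chr19:34583353-34583436, + strand, 176 to 93 bases before the start): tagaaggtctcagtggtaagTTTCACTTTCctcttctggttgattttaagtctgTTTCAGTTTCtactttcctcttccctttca
Oas1a (chr5:120907526-120907585, - strand, 60 to 1 bases before the start): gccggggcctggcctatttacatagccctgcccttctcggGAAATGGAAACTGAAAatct
Bst2 (chr8:71537562-71537627, - strand, 155 to 90 bases before the start): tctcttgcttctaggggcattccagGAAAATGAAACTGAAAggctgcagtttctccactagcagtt
Gbp3 (chr3:142559969-142560043, + strand, 75 to 1 bases before the start): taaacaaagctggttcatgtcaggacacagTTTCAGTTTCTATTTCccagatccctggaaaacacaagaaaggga
In *Oas1a*, *Bst2* and *Gbp3* both cores overlap in 1 run, whereas *Ifit1* and *Ifit3* carry 2 separate cores.

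**Figure D3:**
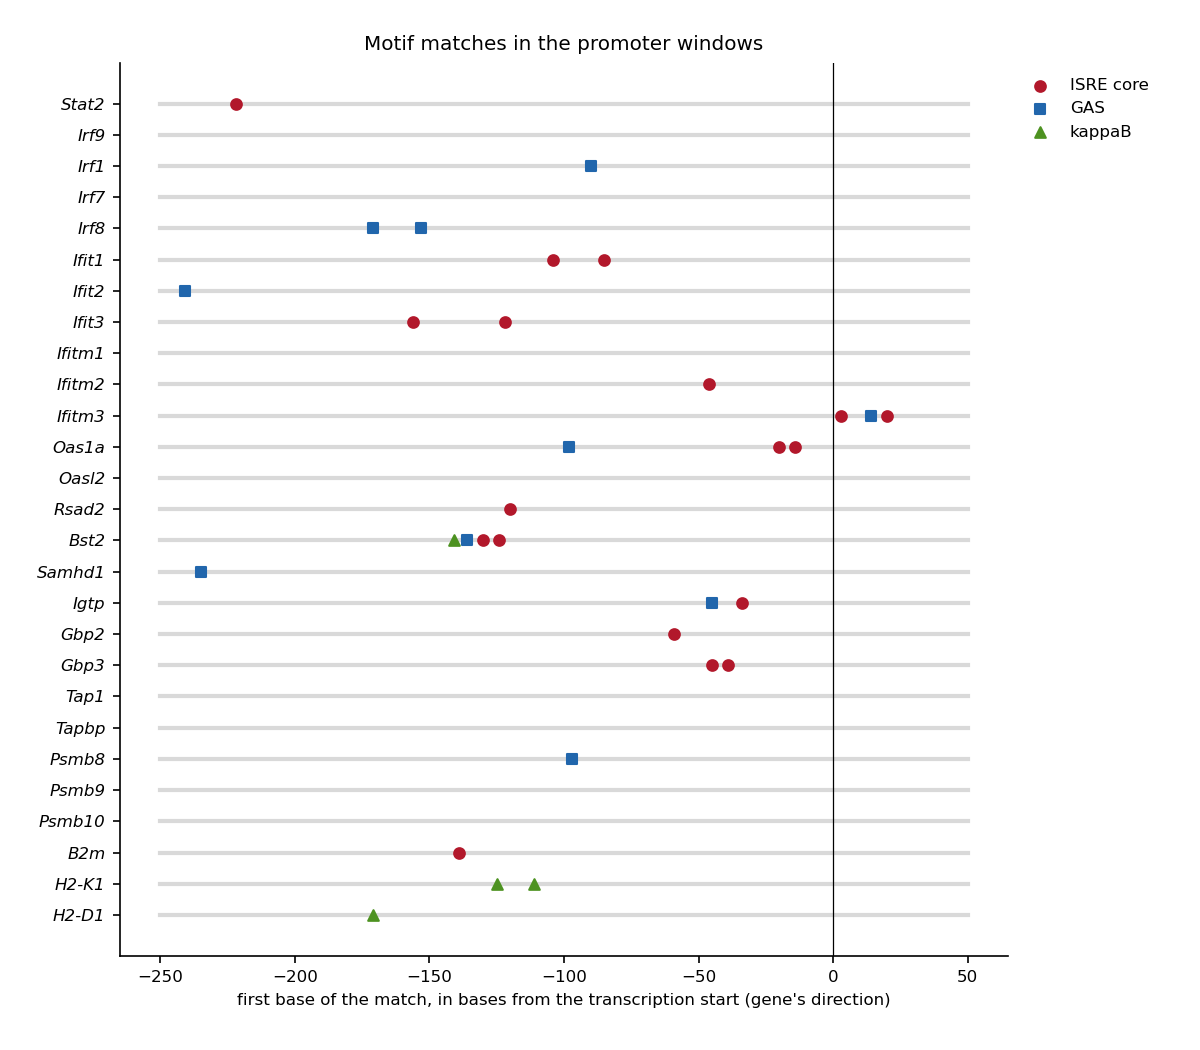
Positions of ISRE core, GAS and κB matches in the RefSeq promoter windows of 27 genes, as the first base of each match counted from the transcription start in the direction of the gene. Most ISRE cores lie upstream of the start in the antiviral effectors and GTPases, and the class I heavy chains carry κB matches. H2-K1 has 2 annotated starts, so that 1 match is drawn at both distances.

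The antiviral effectors did not move together with genotype, 8 of 15 being higher and 7 lower in *Igf1*-/- lungs. *Oas1a*, a 2′-5′-oligoadenylate synthetase that activates RNase L, had the largest difference towards *Igf1*-/- among the 33. It was read at 7.99, 7.98 and 7.75 in *Igf1*-/- and at 7.34, 7.56 and 6.98 in *Igf1*+/+ lungs. All *Igf1*-/- values lay above all *Igf1*+/+ values, a difference of 0.61 on the log2 scale (SE 0.14, 95% confidence interval 0.29 to 0.93), which did not pass after adjustment (adjusted p = 0.144). *Oas2*, of the same enzyme family, was read at 6.62, 6.69 and 6.43 against 6.54, 6.27 and 6.01. Its groups overlapped at the *Igf1*+/+ replicate 1 value, with 0.31 (SE 0.13, adjusted p = 0.394). *Oasl2*, an OAS-like protein, was read at 7.67, 7.71 and 7.29 against 8.15, 7.84 and 6.93, and its difference of -0.08 (SE 0.27) was far smaller than its *Igf1*+/+ range of 1.22. The 3 OAS genes therefore had differences of 0.61, 0.31 and -0.08, with the *Igf1*+/+ replicate 3 value the lowest of all 6 arrays in each.

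The IFIT genes, whose proteins bind foreign RNA and block its translation, lie close together on chromosome 19, and their differences had opposite signs. *Ifit1* was read at 6.22, 6.09 and 5.60 in *Igf1*-/- and at 6.18, 5.91 and 5.17 in *Igf1*+/+ lungs, 0.22 higher on the log2 scale in *Igf1*-/- (SE 0.25, adjusted p = 0.744). *Ifit3* was read at 6.62, 6.36 and 6.23 against 6.67, 6.13 and 5.74, with a difference of 0.22 (SE 0.21, adjusted p = 0.685). In both genes the groups overlapped and replicate 3 of each genotype was lowest. *Ifit2* was read at 6.63, 6.48 and 6.57 against 7.18, 6.99 and 6.67. Here all *Igf1*-/- values were below all *Igf1*+/+ values, with -0.39 (SE 0.12, 95% confidence interval -0.67 to -0.11, adjusted p = 0.26). *Ifit2* has more than 1 annotated start, and only the window of the upstream start holds a GAS. Neither *Ifit2* window holds an ISRE core of these letters, unlike those of *Ifit1* and *Ifit3*. Whether the motifs bear on the opposite signs was not tested.

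*Rsad2*, which encodes viperin, an enzyme that makes a chain-terminating nucleotide, had the largest difference towards *Igf1*+/+. It was read at 8.41, 7.84 and 7.80 in *Igf1*-/- lungs and at 9.15, 8.86 and 7.83 in *Igf1*+/+ lungs. The first 2 *Igf1*+/+ arrays stood above every other array and the third lay among the *Igf1*-/- values, and the log2 fold change of -0.60 had an SE of 0.31 (adjusted p = 0.46). At a dimmer probe set of *Rsad2*, with 6.01, 5.61 and 5.50 against 6.65, 6.56 and 5.65, the first 2 *Igf1*+/+ arrays were again the highest, with a difference of -0.58 (adjusted p = 0.386), while the dimmest had -0.11. *Samhd1*, which depletes the nucleotides viruses need, was read within narrow limits, 8.47, 8.41 and 8.46 against 8.61, 8.62 and 8.57. Its groups did not overlap, but the difference was -0.15 (SE 0.07, adjusted p = 0.409), -0.28 (adjusted p = 0.183) at the next brightest probe set and 0.00 and -0.07 at the other 2.

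The remaining effectors showed differences between -0.13 and 0.13 on the log2 scale. *Usp18*, the protease that removes ISG15 and damps receptor signalling, was read at 7.85, 7.90 and 7.34 against 8.06, 7.86 and 7.42, a difference of -0.08. *Bst2* (tetherin, which holds budding virus at the cell surface) was read at 8.39, 8.48 and 8.24 against 8.88, 8.47 and 8.15, a difference of -0.13. *Ifitm1*, *Ifitm2* and *Ifitm3*, adjacent genes on chromosome 7 whose membrane proteins hinder virus entry, had differences of -0.01, 0.03 and 0.11 (SE 0.11, 0.07 and 0.12). *Mx1* and *Mx2*, dynamin-like GTPases of which *Mx1* is defective in C57BL/6 mice, were read between 4.41 and 4.88 and between 5.62 and 5.83, with differences of 0.13 and 0.06.

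The 4 interferon-inducible GTPases, which attack the vacuoles of intracellular pathogens, had differences between -0.15 and 0.11. *Iigp1* was read at 9.99, 9.75 and 9.96 in *Igf1*-/- and at 9.86, 10.08 and 9.44 in *Igf1*+/+ lungs, a difference of 0.11 (SE 0.15, adjusted p = 0.796). *Gbp3*, a guanylate-binding protein, was read at 6.01, 5.86 and 5.77 against 6.34, 6.32 and 5.42, so that its *Igf1*+/+ arrays held both the highest and the lowest values, with a difference of -0.15 (SE 0.22, adjusted p = 0.811). *Igtp* and *Gbp2* had -0.02 (SE 0.14) and -0.08 (SE 0.11). *Igf1*+/+ replicate 3 was the lowest *Igf1*+/+ array in all 4 genes and the lowest of all 6 in 3 of them.

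The class I chains and the peptide machinery varied little, and for all 9 of these genes the 95% confidence interval of the difference between genotypes lay within a 1.5-fold change. *B2m*, the light chain of class I molecules and an internal control of the study's RT-qPCR, was read at 11.02, 11.13 and 10.99 in *Igf1*-/- and at 10.95, 10.96 and 10.99 in *Igf1*+/+ lungs, a difference of 0.08 (SE 0.07, adjusted p = 0.674), and of -0.06 at its other probe set. The heavy chain *H2-K1* was read at 9.94, 9.81 and 9.78 against 9.70, 9.74 and 9.74. Its groups did not overlap, and the difference of 0.12 (SE 0.08, adjusted p = 0.556) did not pass. *H2-D1* was read at 10.54, 10.52 and 10.27 against 10.24, 10.28 and 10.34, with overlapping groups and a difference of 0.15 (SE 0.09, adjusted p = 0.517). All 4 *H2-K1* probe sets were higher in *Igf1*-/- lungs, by 0.12 to 0.25, and none passed. The 9 *H2-D1* probe sets ranged from -0.07 to 0.33, the largest with groups that did not overlap (adjusted p = 0.252). Class I heavy chains are near copies of each other, and the brightest probe sets of both are of the type that can bind several transcripts. The values may therefore mix heavy chains.

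The promoters show the same likeness. The stretches around the κB match, in capitals, are printed for both heavy chains, whose 69 bases differed at 1, and that around the ISRE core for *B2m*, the sole class I or processing gene with a window that holds one.
H2-K1 (chr17:34000420-34000488, - strand, 155 to 87 bases before the start): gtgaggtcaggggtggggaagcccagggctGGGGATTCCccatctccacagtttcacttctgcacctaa
H2-D1 (chr17:35262893-35262961, + strand, 201 to 133 bases before the start): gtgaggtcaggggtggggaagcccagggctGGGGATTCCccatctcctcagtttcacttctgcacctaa
B2m (chr2:122147518-122147587, + strand, 169 to 100 bases before the start): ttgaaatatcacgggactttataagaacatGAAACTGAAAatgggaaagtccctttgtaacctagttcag
The κB letters were found in 5.82% of 32851 windows.

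The immunoproteasome subunits *Psmb8*, *Psmb9* and *Psmb10*, which replace the catalytic subunits of the standard proteasome, had differences of 0.00 (SE 0.07), 0.01 (SE 0.08) and 0.04 (SE 0.08). *Psmb8* stayed between 7.55 and 7.63 in all 6 arrays. The peptide transporter genes *Tap1* and *Tap2*, which alternate with *Psmb9* and *Psmb8* in an unbroken row of 4 protein-coding genes on chromosome 17, had -0.14 (SE 0.10, adjusted p = 0.576) and -0.05 (SE 0.09). Tapasin (*Tapbp*) was read at 9.55, 9.68 and 9.43 against 9.69, 9.65 and 9.59, a difference of -0.09 (SE 0.09). Of the 14 genes of the constitutive 20S core, 0 passed in limma, at an unadjusted p below 0.05 there were 0, and the median difference was 0.048, among them *Psma2* (0.04), *Psma3* (0.06) and *Psmb4* (0.10). Of 12 further class I and loading genes 0 passed and 0 had an unadjusted p under 0.05. The loading chaperones *Calr*, *Canx* and *Pdia3* had 0.14, 0.11 and 0.08.

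Many of the interferon-stimulated genes varied widely between arrays of 1 genotype. For each gene the spread within genotypes was taken as the pooled SD. Its median was 0.22 over the 24 genes outside antigen presentation, 0.085 over the 9 class I and processing genes, and 0.11 over all genes. Of the 24, 13 lay in the top 10% of all genes by this spread, and of the 9, 0 did. *Rsad2* (pooled SD 0.55), *Oasl2* (0.48), *Ifit1* (0.44), *Gbp3* (0.38) and *Ifit3* (0.36) lay in the top 1%, and *Samhd1*, *Ifitm2* and *Psmb8* (0.03, 0.05 and 0.04) lay in the lowest 10%. The range over the 3 *Igf1*+/+ arrays was wider than the difference between genotypes in 28 of the 33 genes and in 78.6% of all genes. Of the 10 windowed genes in the top 10% of spread, all outside antigen presentation, 7 carried an ISRE core. Among all windowed genes outside antigen presentation, 11 of 19 (57.9%) did. The *Oasl2* window holds no core, and that of *Ifitm2* holds one. A link between the motif and the spread was not tested.

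This spread ran in the same direction in most of these genes. The patterns in this paragraph were noticed in the data and are descriptions. Averaged over the 24 genes, each array's distance from the gene's mean over 6 arrays was 0.11, 0.03 and -0.13 in *Igf1*-/- replicates 1 to 3, and 0.23, 0.04 and -0.28 in *Igf1*+/+ replicates 1 to 3. For the 9 class I and processing genes the same averages lay between -0.07 and 0.05. *Igf1*+/+ replicate 3 was the lowest *Igf1*+/+ array in 20 of the 24, as it was in 32.2% of all genes, and replicate 1 the highest in 18, against 31.2%. *Igf1*-/- replicate 3 was the lowest *Igf1*-/- array in 18 of the 24, against 30.5%. *Igf1*+/+ replicate 3 was the lowest of all 6 arrays in 13, against 15.1% of all genes. It lay below the mean of the other 2 *Igf1*+/+ arrays by 1.18 on the log2 scale in *Rsad2*, by 1.06 in *Oasl2*, by 0.91 in *Gbp3*, by 0.88 in *Ifit1* and by 0.67 in *Ifit3*.

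**Figure D4:**
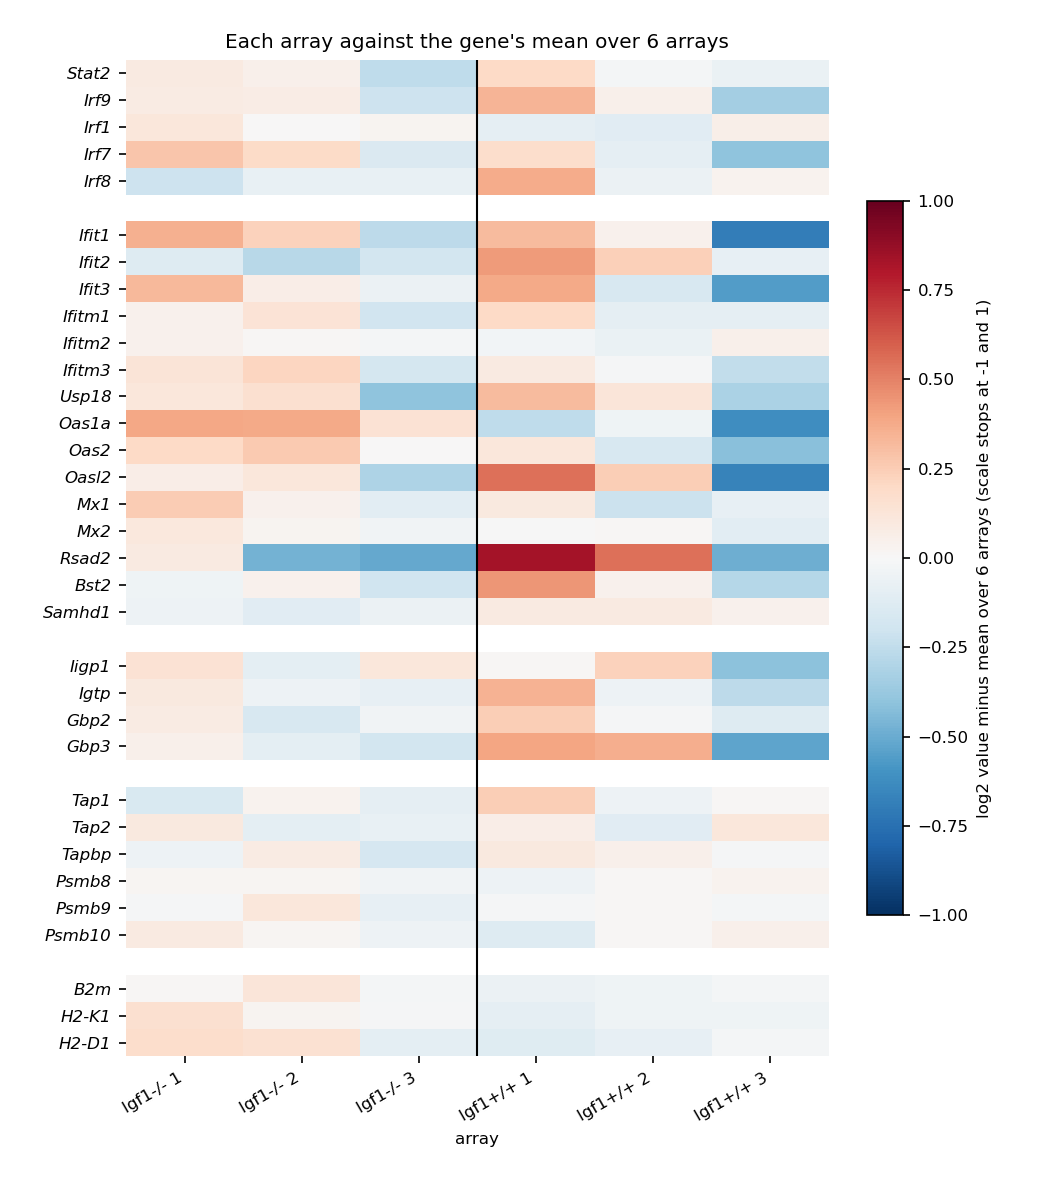
Log2 value of each array minus the gene's mean over the 6 arrays (colour, from blue for lower to red for higher), with Igf1-/- arrays left and Igf1+/+ arrays right of the line. Among the antiviral effectors and GTPases the columns of Igf1+/+ replicates 1 and 3 are mostly red and blue, whereas the class I and processing genes stay pale in all columns.

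Leaving out *Igf1*+/+ replicate 3 moved the comparison between genotypes. Without it *Ifit2* (-0.53, adjusted p = 0.0523), *Rsad2* (-0.99, adjusted p = 0.0585) and *Gbp3* (-0.45, adjusted p = 0.0752) fell in *Igf1*-/- lungs, 3 of 33 genes, where 1.97% of all genes passed as lower. *Oas1a* had 0.45 (adjusted p = 0.1) in that fit, and *Oasl2* went from -0.08 to -0.44 (adjusted p = 0.175). Leaving out any of the other 5 arrays gave 0 of the 33 past the test. Fewer probe sets passed in all without *Igf1*+/+ replicate 1 or 2 (55 each) or *Igf1*-/- replicate 1 (58), against 710 without *Igf1*+/+ replicate 3. Of the 2 arrays with signal of *Eif2s3y*, *Igf1*+/+ replicate 3 had the lowest average of the 24 genes within its genotype and *Igf1*-/- replicate 1 the highest within its own. With this signal as a block in limma, which joins 2 arrays of unlike *Xist* signal, 0 of the 33 passed. *Igf1*+/+ replicate 3 was also the array with the lowest *Xist* value (3.50), and the part of sex in the spread was not tested.

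The same order of arrays appeared in interferon-stimulated genes outside the 33. Of 33 further genes of this kind on the array, 0 passed in limma and 5 had an unadjusted p below 0.05, while 16 were higher and 17 lower in *Igf1*-/- lungs, and the median difference was -0.0047. *Igf1*+/+ replicate 3 was the lowest *Igf1*+/+ array in 26 of these, and replicate 1 the highest in 25, while *Igf1*-/- replicate 3 was the lowest *Igf1*-/- array in 15. *Rtp4*, a receptor chaperone, was read at 8.50, 8.52 and 8.30 against 8.91, 8.40 and 8.18, with a difference of -0.06. *Psme1*, a proteasome activator subunit, and *Ifi30*, a lysosomal thiol reductase, had 0.14 and 0.13. Named after their values were seen, *Ifi27l2a* was read at 8.43, 8.33 and 8.12 against 7.71, 7.50 and 6.48, a difference of 1.06 (SE 0.27, adjusted p = 0.177). *Isg20*, an exonuclease, was read at 8.13, 7.68 and 7.90 against 8.70, 8.60 and 8.32, a difference of -0.64 (SE 0.13, adjusted p = 0.11). Both had groups that did not overlap, in opposite directions, and neither passed.

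Upstream of these genes no ligand, receptor, kinase, sensor or inhibitor passed. Of 15 ligands, receptors and kinases 0 passed, and 1 did at an unadjusted p below 0.05 in limma, with a median difference of 0.062. The receptor genes *Ifnar1* and *Ifnar2* had 0.01 and -0.14, and the kinase *Jak1* had 0.09. *Ifnb1*, named after its values were seen, was read between 4.13 and 4.38 in all 6 arrays. Of 12 sensors and adaptors 0 passed and 1 had an unadjusted p under 0.05, with a median of 0.0032, among them *Irf3* (0.12), *Tbk1* (-0.02) and the ubiquitin ligase *Trim25* (-0.16). *Trim25* was read at 9.57, 9.53 and 9.39 against 10.06, 9.67 and 9.26 and so had the same order of arrays. Of 7 feedback inhibitors 0 passed and 1 had an unadjusted p under 0.05, and *Cish*, *Pias1* and *Ptpn11* had -0.07, 0.00 and -0.01. *Socs3*, named after its values were seen, was read at 8.10, 7.82 and 7.95 against 8.98, 8.96 and 7.95, with a difference of -0.67 (SE 0.24, adjusted p = 0.319).

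In whole lung, more cells of a type and more RNA per cell cannot be told apart, and markers of blood cells are given here for that reason. Of all genes tested, 60.6% had a difference above 0, and the counts of higher markers are read against that share. All 8 neutrophil markers were higher in *Igf1*-/- lungs, and *Camp* (0.83, SE 0.11, adjusted p = 0.0271) and *Cd177* (0.54, SE 0.09, adjusted p = 0.0665) rose. The brightest of them, *S100a8*, *S100a9* and *Ngp*, had 0.63, 0.68 and 0.64 and did not pass (adjusted p between 0.11 and 0.156). Of 6 leukocyte markers 4 were higher and 2 lower. *Rac2* rose (0.49, adjusted p = 0.0695), while *Coro1a* had 0.44 (adjusted p = 0.16), and the brightest, *Lcp1* and *Laptm5*, had -0.05 and -0.01. Of 13 T and NK cell markers 12 were higher and 1 lower. *Gzma* rose (1.11, adjusted p = 0.0271), while *Cd3e* had 0.30 (adjusted p = 0.255) and *Gzmb*, another granzyme gene, -0.09.

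These 4 calls did not hold in every fit that left out 1 array, while the differences kept their sign. They ranged from 0.93 to 1.23 for *Gzma*, 0.74 to 0.94 for *Camp*, 0.47 to 0.60 for *Cd177* and 0.44 to 0.54 for *Rac2*. Fewer probe sets passed in all without *Igf1*+/+ replicate 1 or 2 (55 each) or *Igf1*-/- replicate 1 (58), against 126 with all arrays. Without *Igf1*+/+ replicate 1 the adjusted p of the 4 genes lay between 0.111 and 0.225, and without *Igf1*+/+ replicate 2 between 0.11 and 0.168. *Cd177* and *Rac2* did not pass without any one of the *Igf1*-/- arrays either (adjusted p between 0.15 and 0.206), nor did *Camp* without *Igf1*-/- replicate 3 (adjusted p = 0.137).

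Of 12 macrophage markers 11 were higher, 0 passed and 6 had an unadjusted p under 0.05 (median 0.26), where 12.7% of all genes had such a p in either direction. *Csf1r*, *Tyrobp* and *Ctss* had 0.32, 0.36 and 0.22. Of 7 MHC class II genes 5 were higher, 0 passed and 5 had an unadjusted p under 0.05 (median 0.35), among them *H2-Aa* (0.66, adjusted p = 0.107), while *H2-DMa* had 0.35 (adjusted p = 0.108) and *Cd74* 0.30 (adjusted p = 0.338). The 5 plasmacytoid dendritic cell markers had a median of 0.15, and 0 passed either threshold, with 0.21 for *Tlr7*, 0.14 for *Ly6d* and 0.02 for *Spib*. By array, the average distance of the leukocyte markers was 0.29, 0.03 and 0.05 in *Igf1*-/- and -0.13, -0.03 and -0.21 in *Igf1*+/+ lungs. For the macrophage markers it was 0.15, 0.13 and 0.06 in *Igf1*-/- and -0.08, -0.10 and -0.16 in *Igf1*+/+ lungs, falling from replicate 1 to 3 in each genotype. Every *Igf1*+/+ array thus lay below the mean over 6 arrays in both lists. *Igf1*+/+ replicate 1, the highest array for the interferon-stimulated genes, was the highest *Igf1*+/+ array for the macrophage markers but not for the leukocyte markers. *Igf1*+/+ replicate 3 was the lowest array for the interferon-stimulated genes and for both lists. The part of blood cells in the spread was not tested.

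**Figure D5:**
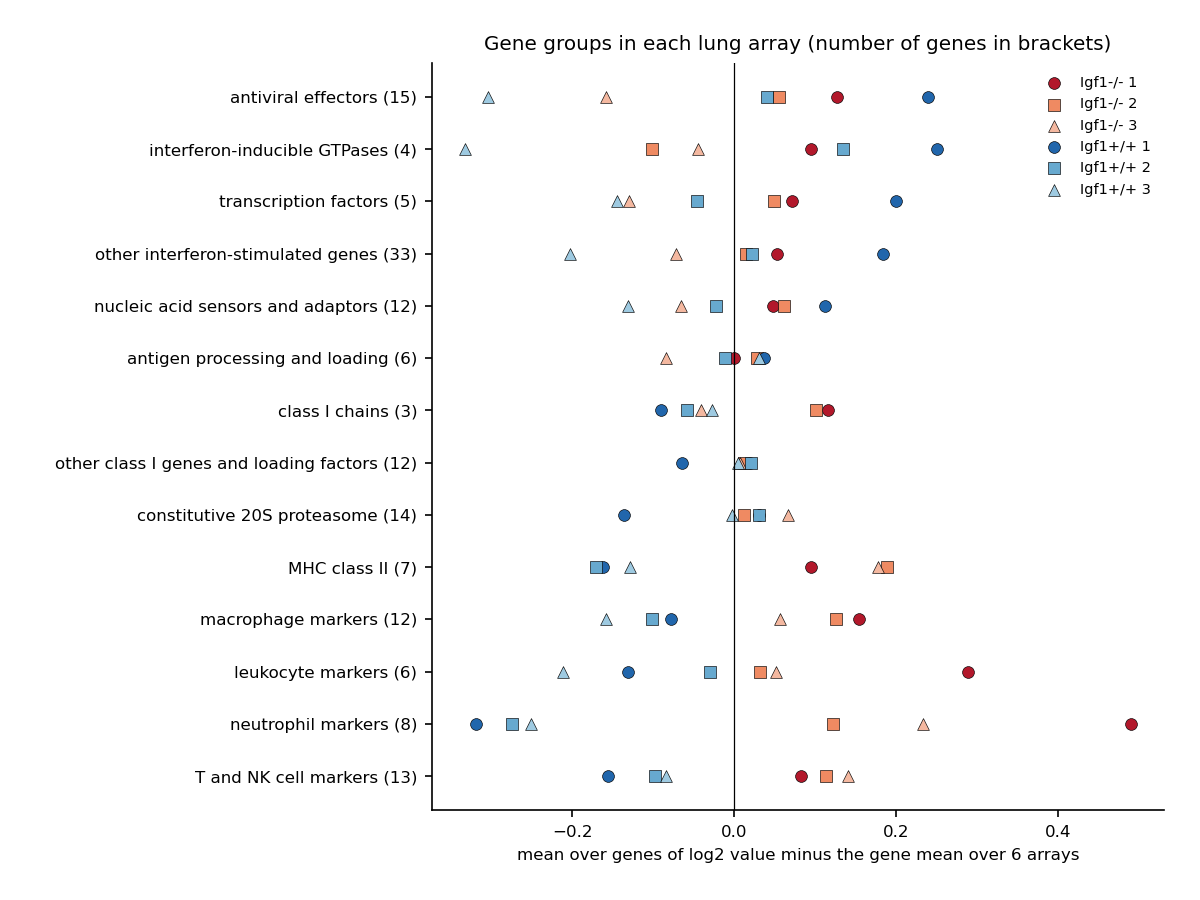
Average over the genes of each group of the log2 value minus the gene's mean over 6 arrays, one symbol per array. The interferon-stimulated groups at the top order the arrays from Igf1+/+ replicate 3 to Igf1+/+ replicate 1 with the other arrays between, the class I and proteasome groups lie between -0.14 and 0.12, and the blood cell markers at the bottom separate the genotypes.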

How the data were processed

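The deposited values are log2 expression values of 6 lung arrays, made by the authors with RMA over these and 6 cochlear arrays together (version not given in the sources used here). The cochlear arrays and scans were not used here. Genotypes and replicate numbers came from the labels. The 64 control probe sets were left out, leaving 22626, of which 20380 have 1 gene symbol, 691 several and 1555 none. Members and lists were chosen with earlier results of these data known. With limma 3.58.1 in R 4.3.3, a model with genotype as its sole term was fitted to all mouse probe sets, p-values were adjusted by Benjamini-Hochberg over them, and rose or fell is written of genes whose adjusted p was below 0.10. The study's methods name SAM, whose chance level comes from regrouping the samples, and limma was used instead. With 3 against 3 arrays an exact permutation p cannot go below 0.1. The number of arrays limits the precision. Values of different probe sets were not compared as levels.

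All measured members are named. Of the other lists, genes past the test and the 3 with the highest mean are named, and any other gene is marked as picked with its values in view. Of the 192 other genes listed, 162 were read alone at a probe set. Promoter motifs were counted over RefSeq windows (GRCm38.p6). The fit was tested on simulated data. Alternatives were quantile normalization, median centring, the replicate block, a filter on dim probe sets, a variance trend, array weights, other thresholds and probe sets, each array left out, and, chosen after seeing the data, Y-linked signal as a block.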

Additional observations from a re-analysis of the deposited data

How the results depend on the processing

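The count of 0 members past an adjusted p of 0.10 held under quantile normalization, median centring, the filter on dim probe sets, the variance trend, Y-linked signal as a block, a threshold of 0.05 and any probe set of a gene. It was 1 with array weights (*Ifit2*, -0.42, adjusted p = 0.0962), where 2.83% of all genes and 628 probe sets passed, 1 at a threshold of 0.20 (*Oas1a*), which 2.72% of all genes passed, and between 0 and 3 when each array was left out, the 3 coming without *Igf1*+/+ replicate 3. With the replicate block it was 1 (*Oas1a*, 0.61, adjusted p = 0.077) and 138 probe sets passed in place of 126. Over all probe sets, same-numbered arrays had correlations of deviations of -0.04, -0.23 and -0.14. Of the 6 arrays, 0 correlated best with their own number. The 24 genes outside antigen presentation did run in the same order in both genotypes. Their averages were 0.11, 0.03 and -0.13 in *Igf1*-/- and 0.23, 0.04 and -0.28 in *Igf1*+/+ replicates 1 to 3. Whether the numbers pair the samples cannot be told from these values. The median difference of the members stayed between -0.057 and 0.0724 without single arrays.

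The count of other listed genes past the test, 4, was 20 with array weights and 8 with a variance trend, and between 0 and 15 when each array was left out (0 without *Igf1*+/+ replicate 1 or 2, 15 without replicate 3, and 2 and 1 without *Igf1*-/- replicates 1 and 3).

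Of 418 values of single members under alternatives, 384 kept their sign and side of the threshold, 5 passed it and 29 changed sign. Array weights turned *Iigp1* (-0.0080), *Tap2* (0.0178), *Psmb8* (-0.0020) and *Psmb9* (-0.0094), and quantile normalization turned *Ifitm1* (0.0085). The cause was not tested. Leaving out single arrays gave differences from -0.3073 to 0.0563 for *Bst2*, -0.1589 to 0.03 for *Gbp2*, -0.4507 to 0.0097 for *Gbp3*, -0.0738 to 0.4329 for *Ifit1*, -0.0794 to 0.0877 for *Ifitm1*, -0.0001 to 0.0572 for *Ifitm2*, -0.1603 to 0.146 for *Igtp*, -0.0667 to 0.2534 for *Iigp1*, -0.2111 to 0.1278 for *Irf9*, -0.4388 to 0.1692 for *Oasl2*, -0.0139 to 0.0778 for *Psmb10*, -0.0205 to 0.0216 for *Psmb8*, -0.0421 to 0.0583 for *Psmb9*, -0.1395 to 0.0304 for *Stat2* and -0.2603 to 0.0971 for *Usp18*.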
